A study of Mus musculus with 9 samples.

Results

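The comparison described here asks what loss of Fabp1 adds to a liver that already lacks Mttp. It sets the 3 libraries of the double-deletion genotype, called DKO, against the 3 libraries of the liver-specific Mttp deletion, called MttpLKO, which is 6 of the 9 libraries of the series. The measure was polyadenylated RNA from liver. All animals were male mice congenic on C57BL/6J that carried floxed Mttp alleles (Mttp fl/fl), were injected intraperitoneally at 14 days of age with 25 mg per kg of diethylnitrosamine (DEN, a carcinogen activated in hepatocytes), were kept on chow and were sampled at 6 months. MttpLKO mice lacked Mttp in the liver, and DKO mice carried that same deletion together with germline deletion of Fabp1, which affects every tissue. The control genotype, floxed Mttp without deletion, was not part of the contrast, and its values are given beside some genes for reference. Each library was RNA pooled from 3 mice, so 9 mice stand behind each genotype. The driver of the liver deletion is not given in the sources used here, nor whether tumour or non-tumour tissue was taken, and there was no genotype with Fabp1 loss alone. Values of single mice were averaged within a pool, and the p-values below measure the spread between pools.

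Mttp encodes the microsomal triglyceride transfer protein, which loads lipid onto apolipoprotein B so that hepatocytes can secrete very low density lipoprotein (VLDL), and without it triglyceride is retained in the liver. Fabp1 encodes liver fatty acid-binding protein, one of the most abundant cytosolic proteins of the hepatocyte, which carries long-chain fatty acids and related ligands to sites of esterification and oxidation and to nuclear receptors such as PPARalpha. Retained triglyceride is held in lipid droplets, whose size depends on coat proteins, on the CIDE proteins that let droplets fuse, and on lipases.

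Stretches of promoter are shown for 4 genes on which the results below turn. They are the 250 bases before the annotated start, taken from RefSeq on GRCm38.p6, 5′ to 3′ on the minus strand. Mup9 (chr4:60421953-60422202) and Mup17 (chr4:61595833-61596082) encode major urinary proteins that rose in DKO, and Mup3 (chr4:62087318-62087567) is a family member that was not called. In these 3 the capitals mark TATATAAG, a TATA box. Hamp (chr7:30944030-30944279) encodes hepcidin, which was lower in DKO. Its first capitals mark GGCGCC, the core of a BMP response element, and its second capitals a match to TTCNNNGAA, the palindrome bound by STAT proteins.
Mup9: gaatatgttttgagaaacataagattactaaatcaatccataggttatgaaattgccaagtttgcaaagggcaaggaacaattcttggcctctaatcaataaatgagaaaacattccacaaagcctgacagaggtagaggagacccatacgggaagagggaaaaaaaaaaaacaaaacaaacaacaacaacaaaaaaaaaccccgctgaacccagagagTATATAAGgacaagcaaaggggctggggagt
Mup17: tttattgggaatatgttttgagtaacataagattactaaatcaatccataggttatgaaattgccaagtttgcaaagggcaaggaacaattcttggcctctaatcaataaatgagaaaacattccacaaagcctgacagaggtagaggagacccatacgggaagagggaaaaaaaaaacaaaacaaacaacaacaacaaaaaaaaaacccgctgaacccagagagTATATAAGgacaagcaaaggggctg
Mup3: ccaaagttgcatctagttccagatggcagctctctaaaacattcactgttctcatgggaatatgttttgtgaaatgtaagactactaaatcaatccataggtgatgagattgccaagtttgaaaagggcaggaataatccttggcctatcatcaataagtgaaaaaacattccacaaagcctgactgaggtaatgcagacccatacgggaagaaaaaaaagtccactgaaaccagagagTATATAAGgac
Hamp: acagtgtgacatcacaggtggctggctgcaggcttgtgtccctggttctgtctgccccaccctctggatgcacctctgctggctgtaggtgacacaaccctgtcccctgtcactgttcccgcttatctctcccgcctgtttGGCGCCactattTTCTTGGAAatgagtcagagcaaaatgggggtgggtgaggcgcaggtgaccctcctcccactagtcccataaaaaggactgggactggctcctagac

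The libraries held 26362408 to 27918197 counts in MttpLKO and 23268389 to 23429588 in DKO, so every DKO library was shallower than every MttpLKO library. Expression is given in CPM, a gene's counts scaled to the library total. The 13869 genes that reached 0.5 CPM in at least 3 of the 6 libraries were tested with the quasi-likelihood F test of edgeR, with Benjamini-Hochberg adjustment. A gene is called here when its adjusted p is under 0.05. Albumin, the defining hepatocyte transcript, was at 35365 to 69188 CPM (Alb), and the summed CPM of 15 hepatocyte markers was 106460 to 116420 in MttpLKO and 76686 to 110380 in DKO. Library 3 of MttpLKO lay apart from the other libraries on the first principal component, which carried 31.8% of the variance, with a score of 44.5 against 6.86 or less elsewhere, and DKO replicate 3 lay at the other end at -32.7. Library 3 of MttpLKO also held 647 CPM of B and plasma cell marker transcripts where the other 5 libraries held 26.5 to 55.6, and 9.33 CPM of the proliferation gene Mki67 against 0.72 to 4.72. Where leaving out 1 library ended the call of a named gene, that library is given with it.

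Few genes were called. Of the 13869 genes, 58 were called (0.418%), 38 of them higher in DKO (0.274%) and 20 lower (0.144%). At an unadjusted p under 0.05 there were 1302, with 751 higher and 551 lower. A second method, DESeq2, called 217 of 13862 genes, 137 higher and 80 lower. The counts given for lists below by these 2 measures are to be read beside these totals, as some are near the same share. Higher values were as common as lower ones over all tested genes, with 50.1% above 0 and a median log2 fold change of 0.0007. The groups of 3 libraries did not overlap for 11.9% of tested genes, with DKO higher for 6.66% and lower for 5.23%. Of the 58 called genes, 20 were also called under each of 16 other settings, among them Fabp1, Cidec, Mup11, Ces1b, Tpmt, Htra2, Mrap2, Zfp949, Mug2, C1rb and C1s2. The plot of level against change shows the called genes spread over the whole range of abundance, from Fabp1 among the most abundant transcripts to genes near 1 CPM.

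**Figure D1:**
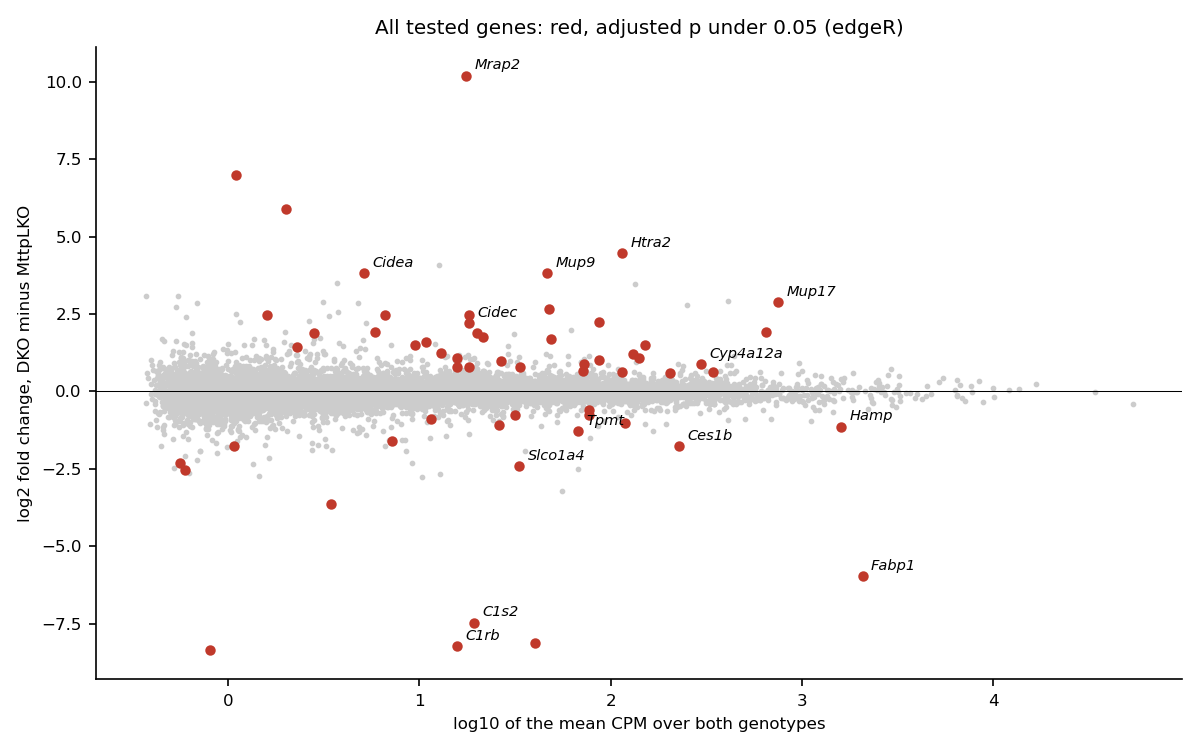
Each point is 1 of the 13869 tested genes, with the log10 of its mean CPM over the MttpLKO and DKO libraries on the x axis and its log2 fold change, DKO minus MttpLKO, on the y axis. The 58 called genes are red; Mrap2 stands highest at 10.20, and Fabp1 lies at -5.97 among abundant genes.

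The targeted genes matched their labels. Fabp1 (chromosome 6, 71199827 to 71205023) was at 3353, 3965 and 4980 CPM in MttpLKO and at 50.9, 68.3 and 77.5 CPM in DKO. The groups lay far apart, and the controls, at 6844, 6048 and 6215 CPM, lay above both. Fabp1 was 62.6-fold lower in DKO (log2 fold change -5.97 ± 0.23 SE, edgeR adjusted p = 1.55e-07). Mttp was already low in both genotypes, with 9.70, 6.09 and 6.26 CPM in MttpLKO and 5.85, 3.27 and 4.50 CPM in DKO, where the controls held 181, 79.7 and 69.2 CPM. All DKO libraries lay below all MttpLKO libraries for Mttp, and the difference missed the threshold (log2 fold change -0.69 ± 0.38 SE, edgeR adjusted p = 0.632). Counts over a whole gene do not show which exons remain.

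No other fatty acid carrier was called beside the loss of Fabp1. Of 19 tested genes of fatty acid binding, uptake and activation, 14 had higher values in DKO, and the median log2 fold change was 0.106 (0.069 without MttpLKO replicate 2). Scp2, which encodes sterol carrier protein and binds fatty acids and sterols, was at 1098, 903 and 790 CPM in MttpLKO and 1283, 1020 and 1280 CPM in DKO, groups that overlap (log2 fold change 0.36 ± 0.16 SE, edgeR adjusted p = 0.527). Dbi, the acyl-CoA-binding protein gene, averaged 706 ± 45.3 CPM (SD, n = 3) and 759 ± 23.2 CPM, and Fabp2, the intestinal-type binding protein gene, 26.6 ± 0.71 and 37.5 ± 16.8 CPM (edgeR adjusted p = 0.794 and 0.58). Fabp4 and Fabp5 stood at 12.8 ± 6.57 against 11.3 ± 2.36 CPM and at 4.39 ± 2.98 against 5.87 ± 1.66 CPM. The transporter gene Slc27a4 averaged 40.4 ± 4.60 and 49.0 ± 3.14 CPM without overlap between the groups, and Cd36 35.2 ± 3.51 and 40.7 ± 2.34 CPM, neither called (edgeR adjusted p = 0.443 and 0.81). Genes of this list other than Fabp1 were chosen for mention after their values were seen.

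Among lipid droplet genes the CIDE genes Cidec and Cidea rose. Cidec, whose protein lets small droplets pass lipid into larger ones, was at 5.35, 7.84 and 6.26 CPM in MttpLKO and at 31.5, 31.1 and 27.5 CPM in DKO. The groups did not overlap, and the controls, at 8.69, 19.5 and 18.99 CPM, lay between them. Cidec rose 4.63-fold (log2 fold change 2.21 ± 0.27 SE, edgeR adjusted p = 0.00615). Its call held without any single library. Cidea, a CIDE gene low in lean liver, was at 1.02, 0.44 and 0.56 CPM in MttpLKO and 9.76, 16.6 and 2.31 CPM in DKO, with 1.45, 4.51 and 3.50 CPM in the controls. It rose 14.2-fold (log2 fold change 3.82 ± 0.69 SE, edgeR adjusted p = 0.0487). That call was lost without control replicates 2 or 3, any MttpLKO replicate, or DKO replicates 1 or 2 (edgeR adjusted p from 0.0671 to 0.293), and the fold was 8.97 without DKO replicate 2. Cideb, the CIDE gene of normal hepatocytes, averaged 51.5 ± 7.31 and 49.0 ± 7.58 CPM (edgeR adjusted p = 0.916).

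Of 21 tested droplet genes 17 had higher values in DKO, 2 were called, 6 had an unadjusted p under 0.05 (all higher), and the median log2 fold change was 0.197. Mgll encodes the lipase that cleaves monoglyceride and was at 239, 323 and 299 CPM in MttpLKO and 432, 488 and 447 CPM in DKO. These groups did not overlap, and the difference fell just short of a call (log2 fold change 0.67 ± 0.13 SE, edgeR adjusted p = 0.0631). Fitm1, which helps triglyceride bud into droplets, went from a mean of 69.6 ± 11.8 to 125 ± 41.4 CPM, and Lipe, the hormone-sensitive lipase gene, from 24.0 ± 5.27 to 34.0 ± 4.61 CPM (edgeR adjusted p = 0.271 and 0.326). The perilipin genes, which encode droplet coats, had no common direction: Plin2 averaged 344 ± 39.4 and 456 ± 94.2 CPM, while Plin4 averaged 67.4 ± 53.6 and 62.9 ± 26.7 CPM and Plin5 92.7 ± 53.0 and 76.0 ± 29.6 CPM. Pnpla2, the main triglyceride lipase gene, was at 155 ± 24.2 and 198 ± 85.8 CPM (edgeR adjusted p = 0.716). Mgll, Fitm1, Lipe, the perilipins and Pnpla2 were chosen after their values were seen.

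Adipocyte markers overlap this list in part, and of 7 tested, 5 had higher values in DKO and 2 were called, Cidea and Adipor2 (median log2 fold change 0.629). Adipor2 encodes an adiponectin receptor that liver expresses, and it was at 276, 257 and 271 CPM in MttpLKO and 425, 428 and 390 CPM in DKO (log2 fold change 0.63 ± 0.10 SE, edgeR adjusted p = 0.0209; lost without control replicate 2, MttpLKO replicates 1 or 2, or DKO replicates 1 or 2, at 0.0556 to 0.153). Cfd, the adipsin gene, was at 1.52, 1.28 and 1.41 CPM in MttpLKO and at 11.8, 57.3 and 2.27 CPM in DKO (log2 fold change 4.08 ± 0.91 SE, edgeR adjusted p = 0.127). The defining fat cell genes were at or near 0: Adipoq was at most 0.089 CPM, Plin1 at most 0.182 CPM, and Lep had no count in any of the 6 libraries. The summed CPM of the 12 markers was 338 to 417 in MttpLKO and 536 to 607 in DKO, most of it from Adipor2. Cfd was chosen after its values were seen.

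Among genes that make lipid, 1 was called. Of 15 tested genes of triglyceride synthesis 8 had higher values in DKO and none was called, with 3 at an unadjusted p under 0.05 and none called by DESeq2 (median log2 fold change 0.009, which changed sign without MttpLKO replicates 2 or 3 or DKO replicate 1). Agpat2, which adds the second acyl chain, was at 264, 202 and 180 CPM in MttpLKO and 331, 321 and 284 CPM in DKO, without overlap (log2 fold change 0.54 ± 0.15 SE, edgeR adjusted p = 0.258). Gpd1, which supplies glycerol 3-phosphate, averaged 354 ± 51.5 and 531 ± 92.2 CPM (edgeR adjusted p = 0.282). Dgat1, for the last step, averaged 41.5 ± 5.42 and 32.6 ± 2.28 CPM, with all DKO libraries below all MttpLKO libraries (edgeR adjusted p = 0.338). Lpin1, a phosphatidate phosphatase gene, spread from 284 to 1197 CPM over the 6 libraries (edgeR adjusted p = 0.555).

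Of 17 fatty acid synthesis genes 6 had higher values, and Me1 was called, lower in DKO (median log2 fold change -0.048, above 0 without MttpLKO replicate 3 or DKO replicate 3). Me1 encodes cytosolic malic enzyme, a source of NADPH for fatty acid synthesis, and was at 105, 91.8 and 93.9 CPM in MttpLKO and 62.8, 56.9 and 53.1 CPM in DKO, both groups lying on either side of the control range of 77.4 to 91.3 CPM. It fell 1.68-fold (log2 fold change -0.75 ± 0.11 SE, edgeR adjusted p = 0.0129; 0.0537 without DKO replicate 2). Fasn, fatty acid synthase, was at 394, 241 and 359 CPM against 621, 348 and 206 CPM, and Scd1, the stearoyl-CoA desaturase gene, at 854, 512 and 1443 CPM against 1035, 651 and 722 CPM. Both overlap widely (edgeR adjusted p = 0.863 and 0.877). Fasn and Scd1 were chosen after their values were seen.

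Cholesterol synthesis genes had lower values for 16 of 20 members (median log2 fold change -0.158), with none called by edgeR or DESeq2 and none at an unadjusted p under 0.05. Fdps, farnesyl diphosphate synthase, was at 195, 122 and 105 CPM in MttpLKO and 157, 93.5 and 76.0 CPM in DKO, and Cyp51, lanosterol demethylase, at 254, 152 and 132 CPM and 176, 134 and 144 CPM (edgeR adjusted p = 0.72 and 0.775). Pmvk and Sc5d averaged 45.7 ± 17.9 against 35.1 ± 8.42 CPM and 311 ± 89.7 against 247 ± 55.9 CPM (edgeR adjusted p = 0.691 and 0.676). The list median was 0.272 without MttpLKO replicate 1 and -0.409 without DKO replicate 1, and it also changed sign without DKO replicate 3.

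Fatty acid oxidation genes had higher values in DKO for 28 of 34 tested members (82.4%), with a median log2 fold change of 0.177 that stayed between 0.060 (without MttpLKO replicate 3) and 0.257 when any compared library was left out. None was called by edgeR, 7 were higher and 2 lower at an unadjusted p under 0.05, and DESeq2 called 3 higher. The members with the smallest p belong to the peroxisome and to PPARalpha targets. Vnn1, a pantetheinase gene under PPARalpha control, was at 37.2, 44.2 and 29.5 CPM in MttpLKO and 55.4, 94.6 and 96.5 CPM in DKO (log2 fold change 1.15 ± 0.28 SE, edgeR adjusted p = 0.171). Ehhadh, the peroxisomal bifunctional enzyme gene, was at 288, 239 and 210 CPM against 303, 394 and 461 CPM (log2 fold change 0.65 ± 0.16 SE, edgeR adjusted p = 0.182). Acaa1b, a peroxisomal thiolase gene, averaged 622 ± 33.8 and 934 ± 220 CPM (edgeR adjusted p = 0.223). For these 3 genes the groups did not overlap.

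Other members of the list showed less. Cpt1a, which admits fatty acids to mitochondria, averaged 337 ± 41.3 and 363 ± 97.8 CPM (edgeR adjusted p = 0.896). Cyp4a14 and Cyp4a10, fatty acid hydroxylase genes that respond strongly to PPARalpha, were at 1050 ± 353 against 1478 ± 605 CPM and 518 ± 185 against 707 ± 239 CPM, with overlapping groups. Ppara itself averaged 88.5 ± 15.4 and 94.6 ± 3.90 CPM. Abcd2, a peroxisomal fatty acid importer gene that is also female-biased, went the other way, with 16.3, 13.7 and 17.9 CPM in MttpLKO and 8.98, 11.02 and 9.35 CPM in DKO (log2 fold change -0.71 ± 0.24 SE, edgeR adjusted p = 0.372). Acsf2, an acyl-CoA synthetase gene outside the list, rose from 162 ± 17.5 to 245 ± 10.7 CPM (log2 fold change 0.59 ± 0.10 SE, edgeR adjusted p = 0.039), a call that held without MttpLKO replicate 1 and was lost without each of the other 8 libraries, controls among them (0.076 to 0.293). Genes of this paragraph were chosen after their values were seen.

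Among genes of VLDL assembly and apolipoproteins, values were higher in DKO for 13 of 25 and lower for 12 (median log2 fold change 0.006, a sign that changed without MttpLKO replicates 2 or 3 or DKO replicates 2 or 3, and 2 members were called lower without MttpLKO replicate 3). Apoa4, which coats triglyceride-rich particles and is raised in fatty liver, was the gene called. It was at 52.0, 55.9 and 64.7 CPM in MttpLKO and 85.1, 138 and 126 CPM in DKO, with 81.2 to 94.2 CPM in the controls. The groups did not overlap, and Apoa4 rose 2.02-fold (log2 fold change 1.02 ± 0.17 SE, edgeR adjusted p = 0.0258). Leaving out control replicates 2 or 3, MttpLKO replicates 1 or 2, or DKO replicates 2 or 3 ended the call (0.0522 to 0.157). Tm6sf2, which lipidates VLDL, was at 66.1, 54.0 and 49.6 CPM against 37.0, 38.4 and 37.5 CPM, and Apoa5, a lipoprotein lipase activator, at 1722, 1975 and 1654 CPM against 956, 1138 and 1306 CPM. Neither pair of groups overlaps, and neither gene was called (edgeR adjusted p = 0.0819 and 0.137). Apob, the VLDL scaffold, averaged 1896 ± 253 and 2098 ± 361 CPM (edgeR adjusted p = 0.81). Tm6sf2, Apoa5 and Apob were chosen after their values were seen.

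Carboxylesterases hydrolyse esters of lipids and drugs, and of 13 tested 1 rose, 1 fell and the median log2 fold change was -0.019 (its sign changed without MttpLKO replicate 1 or DKO replicates 1 or 3, and a second member was called lower without MttpLKO replicate 3). Ces1b was at 338, 366 and 347 CPM in MttpLKO and 62.6, 132 and 115 CPM in DKO, and the controls held 83.7 to 97.8 CPM. DKO thus lay in the region of the controls, and Ces1b fell 3.40-fold (log2 fold change -1.76 ± 0.22 SE, edgeR adjusted p = 0.00632). Ces4a went the other way, from 1.14, 1.35 and 3.56 CPM to 8.58, 11.9 and 12.9 CPM, above the 3.46 to 4.20 CPM of the controls. Its rise was 5.50-fold (log2 fold change 2.46 ± 0.36 SE, edgeR adjusted p = 0.0163), 8.80-fold without MttpLKO replicate 3, and not called without MttpLKO replicate 2 or DKO replicate 2 (0.0666 and 0.0903). Ces1b to Ces1g are related neighbouring genes, so some reads may have been split between copies.

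**Figure D2:**
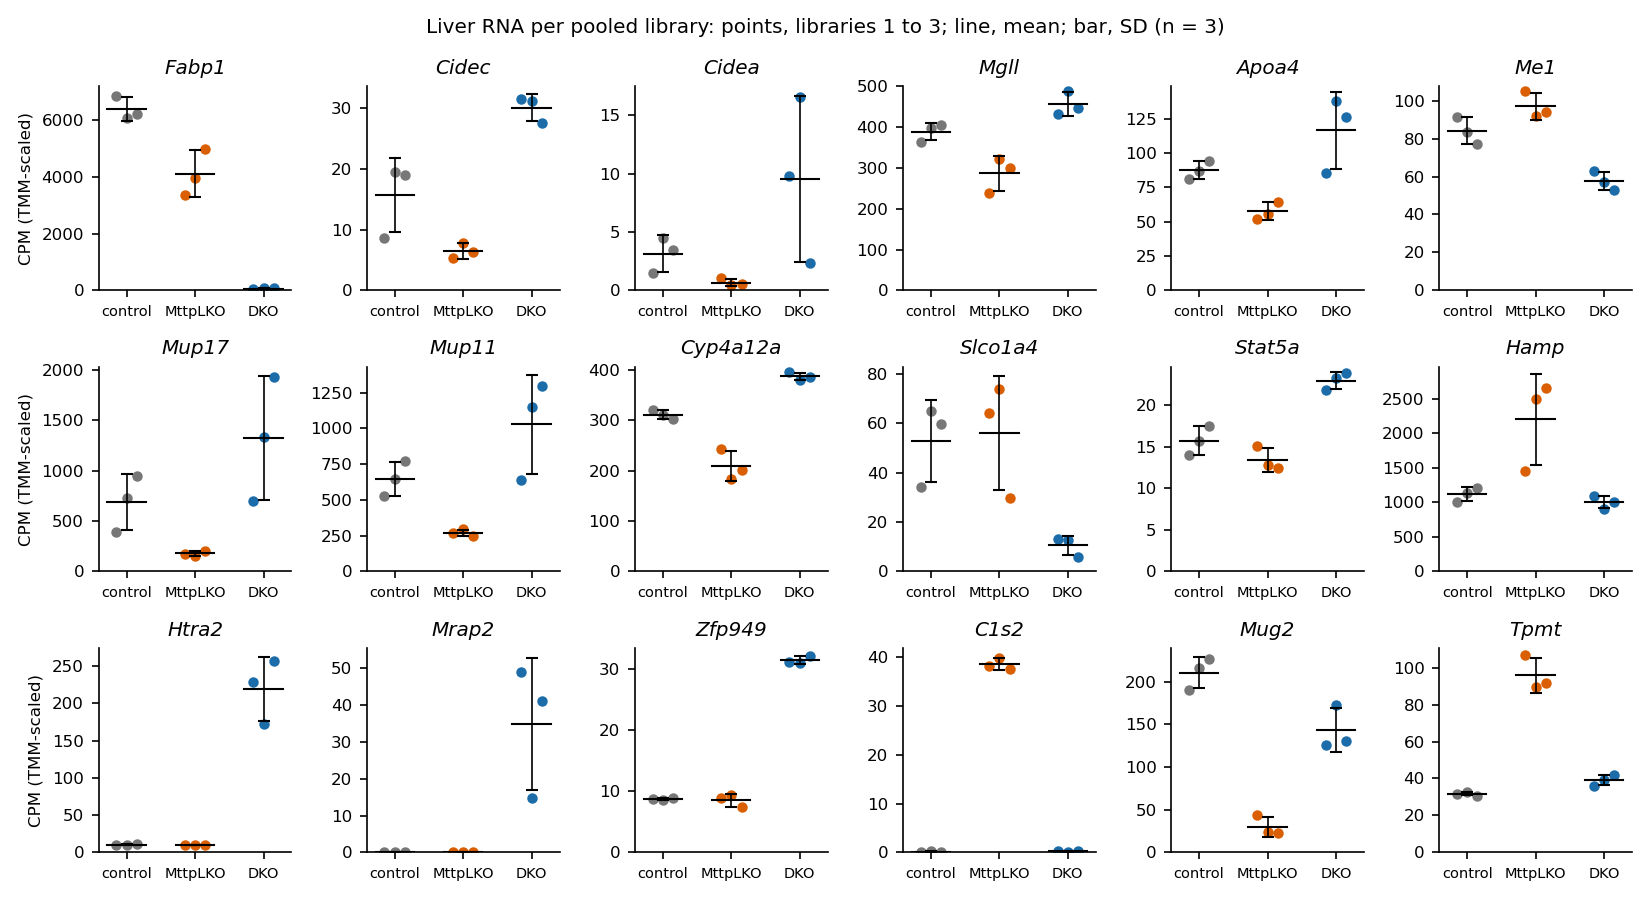
CPM on TMM-scaled library sizes for 18 genes in the control, MttpLKO and DKO libraries, with points for libraries, a line for the mean and a bar for the SD (n = 3). Cidec, Mup11 and Htra2 are higher in every DKO library than in every MttpLKO library, Fabp1, Me1 and Hamp are lower, and C1s2 is at 37.6 to 39.9 CPM in MttpLKO alone.

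The list with the most calls was that of the major urinary proteins, lipocalins that male liver secretes to carry pheromones into urine and whose genes depend on pulsatile growth hormone acting through STAT5. Of 21 members 18 were tested. Among these 15 had higher values in DKO, 7 were called, all higher, and the median log2 fold change was 1.36, between 1.16 and 1.55 when any compared library was left out. The 3 libraries of each genotype did not overlap for 13 members that were higher in DKO and 2 that were lower.

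Mup17 was at 176, 151 and 206 CPM in MttpLKO and 701, 1337 and 1929 CPM in DKO, with 393, 731 and 944 CPM in the controls. It rose 7.44-fold (log2 fold change 2.90 ± 0.38 SE, edgeR adjusted p = 0.00799). Mup9 was at 5.42, 5.25 and 7.70 CPM in MttpLKO and 36.0, 89.3 and 135 CPM in DKO, a 14.1-fold rise (log2 fold change 3.82 ± 0.48 SE, edgeR adjusted p = 0.00632). All DKO libraries lay above all MttpLKO libraries for both genes, and DKO replicate 1 was the lowest of its group each time. Mup11 was at 266, 294 and 248 CPM against 639, 1151 and 1295 CPM (log2 fold change 1.93 ± 0.24 SE, edgeR adjusted p = 0.00615). It alone among the 7 kept its call whichever library was left out. Mup18, Mup1, Mup14 and Mup7 rose by 6.41-fold, 3.36-fold, 3.22-fold and 2.86-fold, with adjusted p-values by edgeR in that order of 0.00897, 0.0169, 0.00732 and 0.0237. Their means in that order were 12.8, 9.82, 23.2 and 78.3 CPM in MttpLKO and 81.9, 33.0, 74.6 and 224 CPM in DKO. The controls averaged 38.7, 24.4, 53.5 and 209 CPM for these genes, and 38.9 and 648 CPM for Mup9 and Mup11. For all 7 called genes every MttpLKO library lay below every control library. MttpLKO replicate 2 decided several calls: without it Mup1, Mup9, Mup14, Mup17 and Mup18 were at adjusted p = 0.0549 to 0.076. Mup1 also lost the call without MttpLKO replicate 1 or DKO replicate 2 (0.051 and 0.0652), and Mup7 without any MttpLKO replicate or DKO replicate 2 (up to 0.14). Without DKO replicate 1, 10 members were called higher, and without control replicate 1, 1 was called lower.

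Not every urinary protein gene took part. Mup3, the most abundant member per gene length among those named here, with a mean of 6846 RPKM in MttpLKO and 5924 RPKM in DKO, was at 7119, 7718 and 7260 CPM against 4974, 7423 and 6614 CPM, groups that overlap (log2 fold change -0.22 ± 0.15 SE, edgeR adjusted p = 0.7). Mup17 by the same measure went from 191 to 1412 RPKM. Mup20, the pheromone darcin, was at 1318, 1415 and 1397 CPM against 1156, 1134 and 990 CPM, and Mup21 at 262, 282 and 241 CPM against 124, 146 and 113 CPM. Both lay lower in every DKO library without passing the test (edgeR adjusted p = 0.419 and 0.171). Several family members are close copies, so that reads can be split between them. The single-gene values, those of the called members included, are uncertain. Mup3, Mup20 and Mup21 were chosen after their values were seen.

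The promoters of the rising genes were compared by motif and by ungapped alignment. Of the 18 tested family members 12 had a RefSeq promoter window of 250 bases before to 50 after the start, and 9 of these held TATATAAG on either strand, against 0.535% of the windows of 10471 tested genes. The 9 were 5 called genes (Mup9, Mup11, Mup14, Mup17 and Mup18) and 4 genes not called, Mup3 and Mup21 among them. Ungapped alignment used these windows, which run 50 bases past the printed stretches. Mup9 and Mup17 matched at 75.3% of 292 bases, and pairs of called members ranged from 72.6% (Mup9 and Mup18) to 98.5% (Mup7 and Mup11). Mup3 matched the called members at 50.4% (Mup17) to 64.5% (Mup7). Insertions in either sequence shift all bases after them and lower such figures, so they do not rank how alike the promoters are. Where they overlap, the printed stretches of Mup9 and Mup17 differ mainly in the lengths of runs of a and c. TTCNNNGAA, searched on both strands, was in no window of the 6 called members with an entry, in 6 of 45 windows of all called genes (13.3%) and in 6.90% of all windows. No match means only that these letters are not in the window. The TATA motif was chosen after the sequences were seen.

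Other male-biased liver genes leaned the same way as the urinary proteins. Of 25 tested, 20 had higher values in DKO, 2 were called, 8 were higher and none lower at an unadjusted p under 0.05, and the median log2 fold change was 0.332 (0.190 without MttpLKO replicate 2). Cyp4a12a, an androgen- and growth hormone-dependent fatty acid hydroxylase gene, was at 242, 184 and 202 CPM in MttpLKO and 395, 379 and 386 CPM in DKO, with 303 to 320 CPM in the controls. It rose 1.85-fold (log2 fold change 0.89 ± 0.12 SE, edgeR adjusted p = 0.00732; 0.0572 without MttpLKO replicate 2). Its close copy Cyp4a12b was at 85.8, 75.3 and 75.3 CPM against 184, 196 and 173 CPM (log2 fold change 1.23 ± 0.20 SE, edgeR adjusted p = 0.0237), a call lost without any of the 6 compared libraries (0.0543 to 0.138). Reads may be shared between the copies. Cyp7b1, the oxysterol hydroxylase gene, averaged 173 ± 20.4 and 308 ± 48.6 CPM and Nudt7, a peroxisomal CoA hydrolase gene, 290 ± 78.4 and 527 ± 30.8 CPM, without overlap (edgeR adjusted p = 0.271 and 0.258). Elovl3 and Hsd3b5, also male-biased, overlapped between the genotypes (edgeR adjusted p = 0.726 and 0.831). Cyp7b1, Nudt7, Elovl3 and Hsd3b5 were chosen after their values were seen.

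Female-biased genes lay on the other side. Of 25 listed, 16 were tested, 13 of them had lower values in DKO, 2 were called lower, 7 were lower and none higher at an unadjusted p under 0.05, and the median log2 fold change was -0.73. Slco1a4, an organic anion and bile acid transporter gene, was at 64.3, 73.7 and 29.8 CPM in MttpLKO and 13.0, 12.7 and 5.97 CPM in DKO, while the controls held 34.0 to 64.7 CPM. It fell 5.30-fold (log2 fold change -2.40 ± 0.39 SE, edgeR adjusted p = 0.0239). The call was lost without MttpLKO replicates 1 or 2 or any DKO replicate (0.0601 to 0.104). Cyp2b9, nearly restricted to female liver, was at 70.8, 54.0 and 53.7 CPM against 25.5, 29.2 and 26.9 CPM, and Cyp2a5 at 1859, 1620 and 931 CPM against 659, 905 and 692 CPM, neither past the test (edgeR adjusted p = 0.548 and 0.171). Control replicate 1 held 5.58 CPM of Cyp2b9 and the other controls 46.0 and 45.6 CPM. Cyp2b9 and Cyp2a5 were chosen after their values were seen.

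Of 17 tested genes of growth hormone signalling 7 had higher values in DKO, and Stat5a was called (median log2 fold change -0.071, above 0 without MttpLKO replicate 3 or DKO replicate 1). Stat5a, a transcription factor that growth hormone activates, was at 15.05, 12.8 and 12.4 CPM in MttpLKO and 21.8, 23.2 and 23.9 CPM in DKO, above the 14.1 to 17.5 CPM of the controls. It rose 1.71-fold (log2 fold change 0.78 ± 0.12 SE, edgeR adjusted p = 0.0226; 0.0628 to 0.156 without control replicate 2, MttpLKO replicates 2 or 3, or any DKO replicate). It overlaps Stat3 on the opposite strand (log2 fold change 0.23). Stat5b, the more abundant liver form, averaged 44.0 ± 7.33 and 53.6 ± 3.39 CPM (edgeR adjusted p = 0.534). The receptor gene Ghr averaged 313 ± 48.1 and 296 ± 19.4 CPM and Igf1, the classic hormone target, 727 ± 70.8 and 674 ± 35.6 CPM. Socs2 and Cish, feedback inhibitors that follow each hormone pulse, spread widely within genotypes, Cish from 8.01 to 51.8 CPM within DKO. Reads counted to Gh were at 5.42, 16.9 and 14.1 CPM in MttpLKO and 15.4, 17.8 and 11.8 CPM in DKO (edgeR adjusted p = 0.839). All 6 libraries with the liver deletion thus held such reads, against at most 0.12 CPM in the controls. Whether these reads came from the Gh gene itself was not tested. The pituitary genes Prl and Tshb had no count in the 6 libraries. Stat5b, Ghr, Igf1, Socs2 and Cish were chosen after their values were seen.

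**Figure D3:**
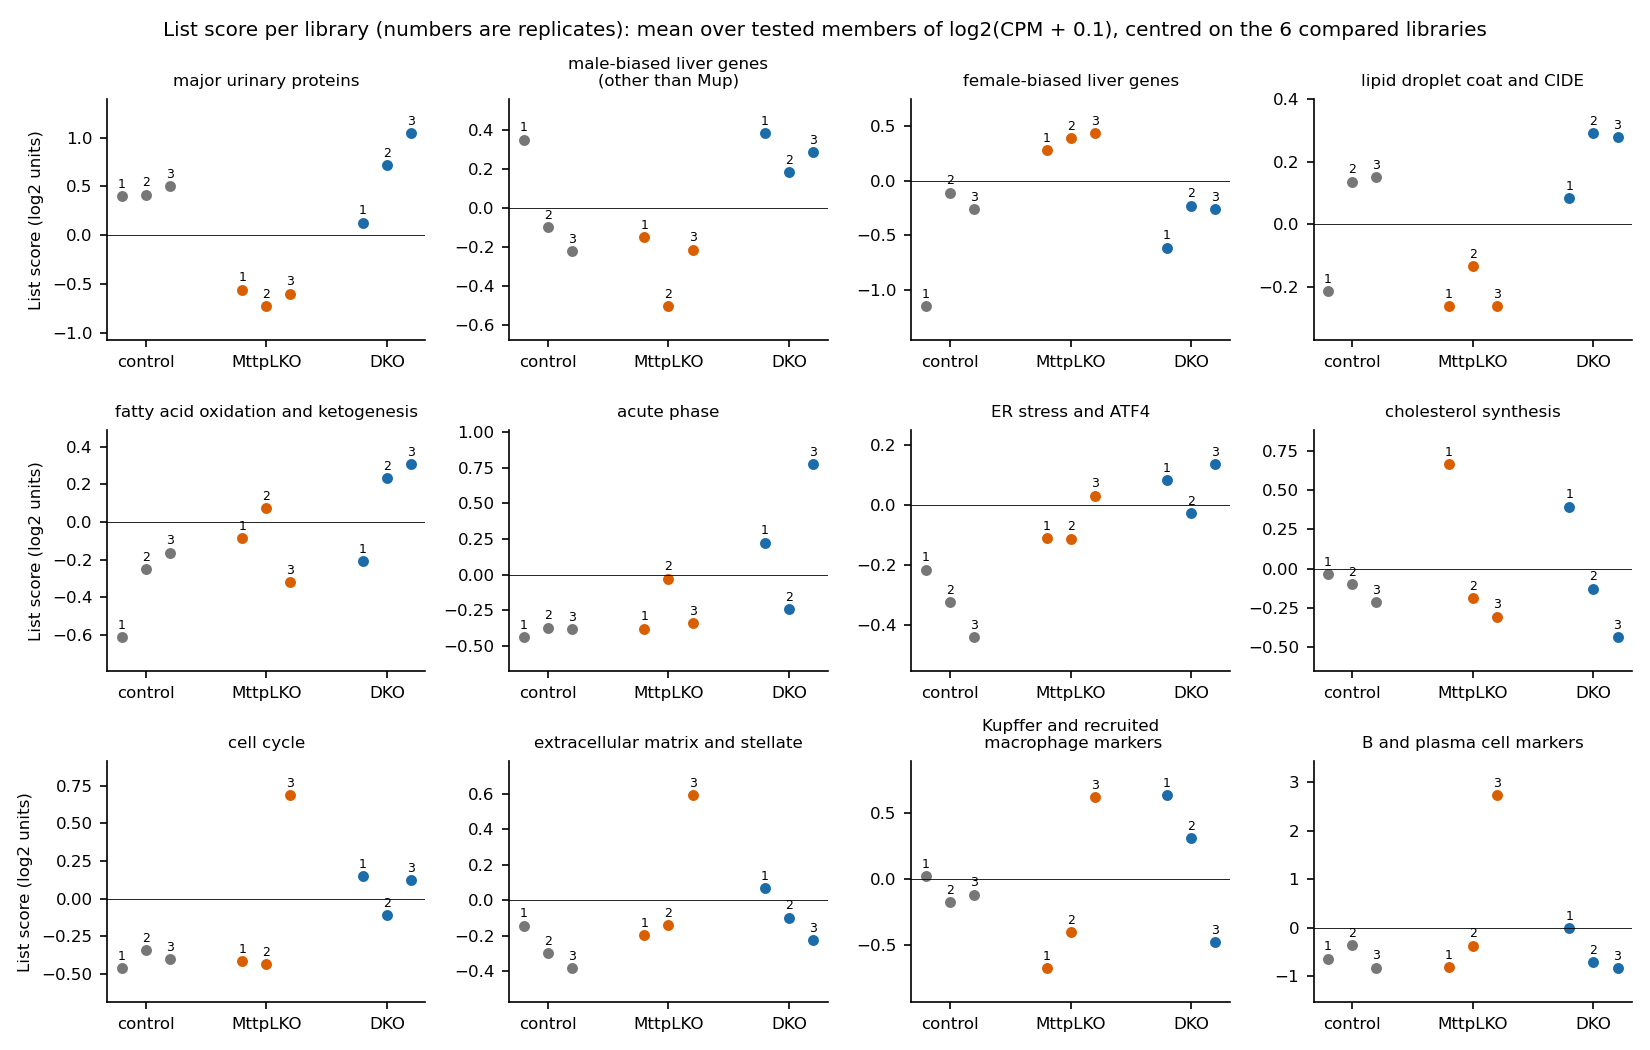
Score of 12 gene lists in each library, the mean over tested members of log2(CPM + 0.1) after centring each gene on the 6 compared libraries, in log2 units, with replicate numbers at the points. The urinary protein, male-biased and droplet scores of all DKO libraries lie above those of all MttpLKO libraries and the female-biased scores below, while the cell cycle, matrix and B and plasma cell scores stand out in MttpLKO replicate 3.

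Hamp encodes hepcidin, the liver hormone that blocks iron export by ferroportin and that BMP and STAT3 signals switch on through the elements shown in its promoter. Those elements start 109 and 97 bases before the annotated start. GGCGCC, chosen after the sequence was seen, occurred in 11.1% of windows of called genes and 20.9% of all windows. Hamp was at 1448, 2500 and 2664 CPM in MttpLKO and 1090, 911 and 1008 CPM in DKO, and the controls, at 1011 to 1213 CPM, lay in and just above the DKO range. It fell 2.20-fold (log2 fold change -1.14 ± 0.20 SE, edgeR adjusted p = 0.0465). The call held without MttpLKO replicate 1 and was lost without each of the other 8 libraries (0.0604 to 0.215). The paralog Hamp2 was at 8.11, 13.3 and 18.8 CPM against 4.07, 5.04 and 1.56 CPM, also without overlap (edgeR adjusted p = 0.115). Id1, a BMP target, averaged 33.1 ± 11.6 and 20.01 ± 7.43 CPM, and Bmp6, the ligand that iron induces, 3.85 ± 1.36 and 3.03 ± 1.12 CPM, with overlapping groups. Of 19 tested iron genes 8 had higher values, and the median log2 fold change was -0.032 (-0.095 without DKO replicate 2 and -0.011 without DKO replicate 1). Hamp2, Id1 and Bmp6 were chosen after their values were seen.

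The lists of xenobiotic, glutathione and bile acid genes had more members lower than higher in DKO. Of 24 tested genes of xenobiotic metabolism 18 had lower values in DKO and Tpmt was called (median log2 fold change -0.192, -0.079 without MttpLKO replicate 1 and -0.352 without MttpLKO replicate 3, where 3 were called lower). At an unadjusted p under 0.05, 5 members were lower and 2 higher, and the highest log2 fold change of the list was 1.93. Tpmt, thiopurine methyltransferase, was at 107, 89.5 and 91.5 CPM in MttpLKO and 36.1, 39.4 and 41.9 CPM in DKO, near the 30.8 to 32.5 CPM of the controls. It fell 2.45-fold with little spread (log2 fold change -1.29 ± 0.10 SE, edgeR adjusted p = 0.000168). No single library ended the call. Cyp2e1, the cytochrome that activates DEN, was at 8713, 9463 and 5218 CPM against 6967, 7824 and 8582 CPM, with overlap (edgeR adjusted p = 0.999). Of 24 NRF2 and glutathione genes 18 had lower values with none called by edgeR, 5 lower at an unadjusted p under 0.05 and 1 called lower by DESeq2 (median log2 fold change -0.099, -0.041 without MttpLKO replicate 1 and -0.179 without MttpLKO replicate 2). Gstm1 and Gstm2, glutathione transferase genes, averaged 3424 ± 142 against 2518 ± 326 CPM and 65.9 ± 12.9 against 39.3 ± 9.26 CPM (edgeR adjusted p = 0.342 and 0.171). Of 24 tested bile acid genes 15 had lower values and Slco1a4 was called (median log2 fold change -0.131, -0.033 without MttpLKO replicate 1 and -0.268 without MttpLKO replicate 3), and Cyp7a1, the rate-limiting enzyme of bile acid synthesis, was at 141, 122 and 103 CPM against 115, 51.6 and 21.2 CPM (edgeR adjusted p = 0.657). Cyp2e1 and Cyp7a1 were chosen after their values were seen.

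**Figure D4:**
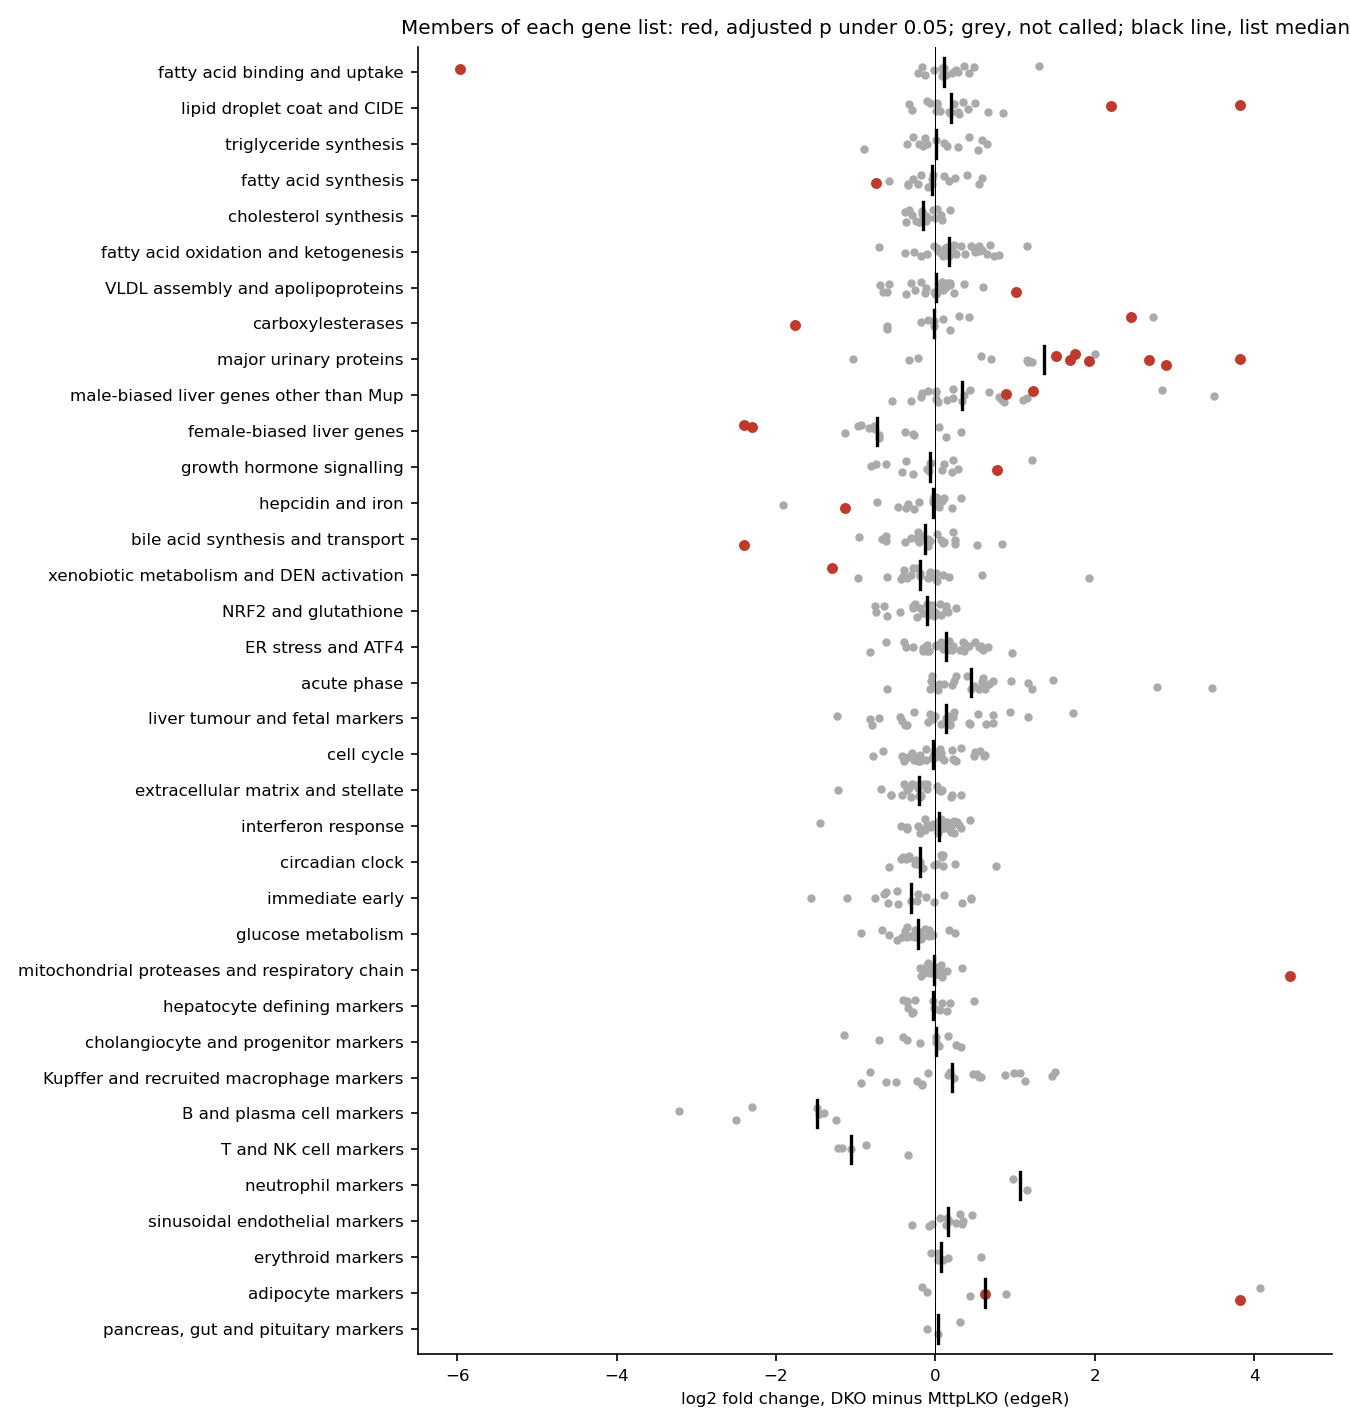
Log2 fold change, DKO minus MttpLKO, of each tested member of the gene lists, with called genes in red, others in grey and a black line at the list median. The urinary protein median lies at 1.36 and the female-biased median at -0.73, while most lists centre near 0.

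Inflammatory and stress genes leaned higher and rested on few libraries. Of 27 tested acute phase genes 22 had higher values in DKO (median log2 fold change 0.446), with none called by edgeR, 11 higher at an unadjusted p under 0.05 and 2 called higher by DESeq2. Saa1, serum amyloid A, was at 33.7, 116 and 41.4 CPM in MttpLKO and 537, 46.5 and 734 CPM in DKO, and Saa2 at 12.9, 35.6 and 18 CPM against 254, 12.4 and 470 CPM. DKO replicates 1 and 3 were high for both and DKO replicate 2 lay within or below the MttpLKO range (edgeR adjusted p = 0.249 and 0.198). Without DKO replicate 2, 3 acute phase genes were called higher, Saa1 and Saa2 among them (edgeR adjusted p = 0.0271 and 0.00322), and without DKO replicate 3 the list median was 0.025. Of 30 genes of endoplasmic reticulum stress 20 had higher values (median 0.128, and -0.023 without DKO replicate 3), none was called by edgeR, 7 were higher at an unadjusted p under 0.05 and DESeq2 called 3 higher. The chaperone genes Pdia6 and Sdf2l1 were at 189, 163 and 211 CPM against 285, 242 and 294 CPM and at 23.0, 21.7 and 37.2 CPM against 65.3, 43.7 and 50.3 CPM, without overlap (edgeR adjusted p = 0.152 and 0.158). Sdf2l1 was called without MttpLKO replicate 3 (log2 fold change 1.23, edgeR adjusted p = 0.0242).

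Tumour, fetal, proliferation and matrix markers had no call with all libraries. Of 29 tested tumour and fetal liver markers 17 had higher values (median log2 fold change 0.139, -0.043 without MttpLKO replicate 1 and 0.434 without MttpLKO replicate 3, where 2 were called higher), with 2 higher and 3 lower at an unadjusted p under 0.05 and 1 called lower by DESeq2. Meg3, an imprinted noncoding RNA, was at 16.7, 13.1 and 10.3 CPM in MttpLKO and 9.23, 6.93 and 6.94 CPM in DKO, and Cd24a, a progenitor surface gene, at 2.77, 3.36 and 6.41 CPM against 1.71, 1.12 and 2.49 CPM, without overlap (edgeR adjusted p = 0.197 and 0.271). Of 35 cell cycle genes 14 had higher values (median -0.028, and 0.470 without MttpLKO replicate 3), with 1 lower at an unadjusted p under 0.05 and none by DESeq2, and Mcm6 and Aurka had edgeR adjusted p = 0.476 and 0.577. Of 30 matrix and stellate genes 7 had higher values (median -0.200, and 0.037 without MttpLKO replicate 3), with 3 lower at an unadjusted p under 0.05 and none by DESeq2. Mgp, matrix Gla protein, was at 3.83, 7.26 and 9.92 CPM against 2.28, 2.32 and 4.41 CPM and Mmp2 had an edgeR adjusted p = 0.507.

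Macrophage markers depended on the same library. Of 22 tested, 14 had higher values in DKO (median log2 fold change 0.211, 0.069 without MttpLKO replicate 2 and 0.862 without MttpLKO replicate 3, where 1 was called higher), with 5 higher and 1 lower at an unadjusted p under 0.05 and 1 called higher by DESeq2. Clec4f, which marks resident Kupffer cells and was chosen after its values were seen, was at 11.8, 12.9 and 35.2 CPM in MttpLKO and 44.9, 50.7 and 22.6 CPM in DKO. Marco and Timd4, also Kupffer cell genes, averaged 2.12 ± 0.99 against 5.85 ± 1.86 CPM and 0.63 ± 0.32 against 1.80 ± 1.04 CPM (edgeR adjusted p = 0.158 and 0.326). The summed CPM of the 22 markers was 96.5, 118 and 290 in MttpLKO and 280, 298 and 149 in DKO. In bulk RNA, fewer cells of a type and less RNA per cell cannot be told apart. The 7 tested B and plasma cell markers all had lower values in DKO (median -1.48, and 0.107 without MttpLKO replicate 3), and the 5 T and NK cell markers likewise (median -1.06, and 0.040 without it). None of these 12 was called by edgeR or DESeq2, and 3 B and plasma cell markers were lower at an unadjusted p under 0.05. Ighm and Jchain, immunoglobulin genes, had 281 and 36.7 CPM in MttpLKO replicate 3 and at most 14.8 and 5.51 CPM elsewhere. Sinusoidal endothelial markers were higher for 9 of 12 (median 0.159, and 0.020 without MttpLKO replicate 1), cholangiocyte markers for 6 of 11 (0.004), hepatocyte markers for 5 of 15 (-0.032), erythroid markers for 5 of 6 (0.068) and neutrophil markers for both tested (1.06), with none called by edgeR or DESeq2. At an unadjusted p under 0.05 there were 1 endothelial, 3 cholangiocyte, 2 hepatocyte, 0 erythroid and 0 neutrophil markers. The sign of the hepatocyte median changed without DKO replicate 1, that of the erythroid median without MttpLKO replicate 1 or DKO replicate 2, and that of the cholangiocyte median without any compared library but DKO replicate 1.

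Many of the called genes lay near each other. The 3 chromosomes with the most calls were 4, 6 and 9, with 13 of 900, 10 of 690 and 9 of 757 tested genes (1.44%, 1.45% and 1.19%). Over all tested genes the share called was 0.418%. Near the deleted gene few were called: of 199 genes tested within 20 Mb of the start of Fabp1, 2 were called (1.01%). These were Fabp1 itself and a single neighbour, Htra2. Within 20 Mb of Mttp, the deletion that both genotypes carry, 1 of 138 was called (0.725%), Etnppl. The windows described below were chosen after the values were seen. Each begins and ends at a called gene, which raises its share called, so these shares cannot be compared directly with the share over all tested genes.

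Htra2 (chromosome 6, 83051266 to 83055273), a mitochondrial serine protease gene, starts 11.9 Mb from the start of Fabp1. It was at 9.78, 9.85 and 10.2 CPM in MttpLKO, 10.1 to 10.7 CPM in the controls, and 228, 172 and 256 CPM in DKO. It rose 22.0-fold (log2 fold change 4.46 ± 0.15 SE, edgeR adjusted p = 8.85e-08). It overlaps Loxl3 and Aup1 on the opposite strand, which were not called (log2 fold change -0.18 and 0.03). Since the strand setting is not given, reads of overlapping genes cannot be told apart. The other 21 genes of the list of mitochondrial proteases and respiratory chain held no call, and its median log2 fold change was -0.010 (0.015 without MttpLKO replicate 1).

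Farther along chromosome 6, 42.2 to 70.6 Mb from Fabp1, 8 of 200 tested genes were called (4%). C1rb and C1s2, complement protease genes that are copies of C1ra and C1s1, were at 29.8, 32.9 and 31.2 CPM and at 38.2, 39.9 and 37.6 CPM in MttpLKO, and at no more than 0.172 and 0.267 CPM in any DKO library and 0.216 and 0.225 CPM in any control. C1rb was 300-fold lower (log2 fold change -8.23 ± 0.38 SE, edgeR adjusted p = 8.98e-07; 457-fold without DKO replicate 2) and C1s2 177-fold lower (log2 fold change -7.46 ± 0.26 SE, edgeR adjusted p = 8.85e-08). Thus for this pair the libraries that stand apart are those of MttpLKO. The same held for Pianp, a membrane protein gene, at 4.02, 5.25 and 9.89 CPM in MttpLKO and at most 0.732 CPM in the other 6 libraries (log2 fold change -3.63 ± 0.46 SE, edgeR adjusted p = 0.00636). Mug2, a murinoglobulin protease inhibitor gene, was at 43.9, 24.0 and 22.3 CPM in MttpLKO, 126, 173 and 131 CPM in DKO and 191 to 226 CPM in the controls, and it rose 4.77-fold (log2 fold change 2.25 ± 0.24 SE, edgeR adjusted p = 0.00229). Pik3c2g, a lipid kinase gene, fell 1.84-fold from 16.7, 14.0 and 13.9 CPM to 7.48, 7.83 and 8.99 CPM (edgeR adjusted p = 0.0239, lost without MttpLKO replicates 1 or 2 or DKO replicates 1 or 2, at 0.0674 to 0.115). Cidec, Adipor2 and Slco1a4, described above, lie in the same stretch, and the other 192 tested genes had a median absolute log2 fold change of 0.163.

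On chromosome 9, 7 of 19 tested genes in 4.67 Mb between Bckdhb and 9430037G07Rik were called (36.8%), and here DKO was the genotype that stood apart. Mrap2 (chromosome 9, 87144306 to 87184045), a melanocortin receptor accessory protein gene, had 2468 counts in DKO as a whole and 2 in MttpLKO as a whole, which is 1434 times more relative to the totals, with a 95% counting interval of 397 to 11850. Its CPM was 48.9, 14.7 and 41.1 in DKO and at most 0.121 in the other 6 libraries (edgeR adjusted p = 3.42e-05). Zfp949, a zinc finger gene, was at 8.95, 9.37 and 7.37 CPM in MttpLKO, 8.56 to 8.97 CPM in the controls and 31.2, 31.0 and 32.2 CPM in DKO, and it rose 3.67-fold (log2 fold change 1.88 ± 0.12 SE, edgeR adjusted p = 1.87e-05). Both calls held without any single library. 9430037G07Rik had 130 counts over MttpLKO and none over DKO, at least 37.3-fold lower against a floor of 3 counts over the group (edgeR adjusted p = 0.00229).

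Between these lie genes with smaller changes. Nt5e, the CD73 ecto-nucleotidase gene, was at 5.19, 4.23 and 6.52 CPM in MttpLKO and 15.7, 16.7 and 16.3 CPM in DKO (log2 fold change 1.61 ± 0.23 SE, edgeR adjusted p = 0.0129; 0.051 to 0.082 without MttpLKO replicates 1 or 2 or DKO replicate 2). Cep162, a centriole and cilium gene next to Mrap2, was at 4.93, 4.27 and 5.59 CPM against 16.4, 9.81 and 15.7 CPM (log2 fold change 1.501 ± 0.22 SE, edgeR adjusted p = 0.0134; 0.051 to 0.0926 without MttpLKO replicates 1 or 2 or DKO replicate 1). For Mrap2 and Cep162 alike DKO replicate 2 was the lowest of its group. Bckdhb, a subunit of the complex that degrades branched-chain keto acids, averaged 90.3 ± 9.495 and 139 ± 2.89 CPM (log2 fold change 0.62 ± 0.10 SE, edgeR adjusted p = 0.0258; lost without any of the 9 libraries, at 0.0525 to 0.123). Me1, described above with the lipid genes, lies in the same stretch. The 12 tested genes between them that were not called had a median absolute log2 fold change of 0.142, and Snx14 and Snhg5, next to Nt5e and Zfp949, were at -0.03 and -0.20.

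**Figure D5:**
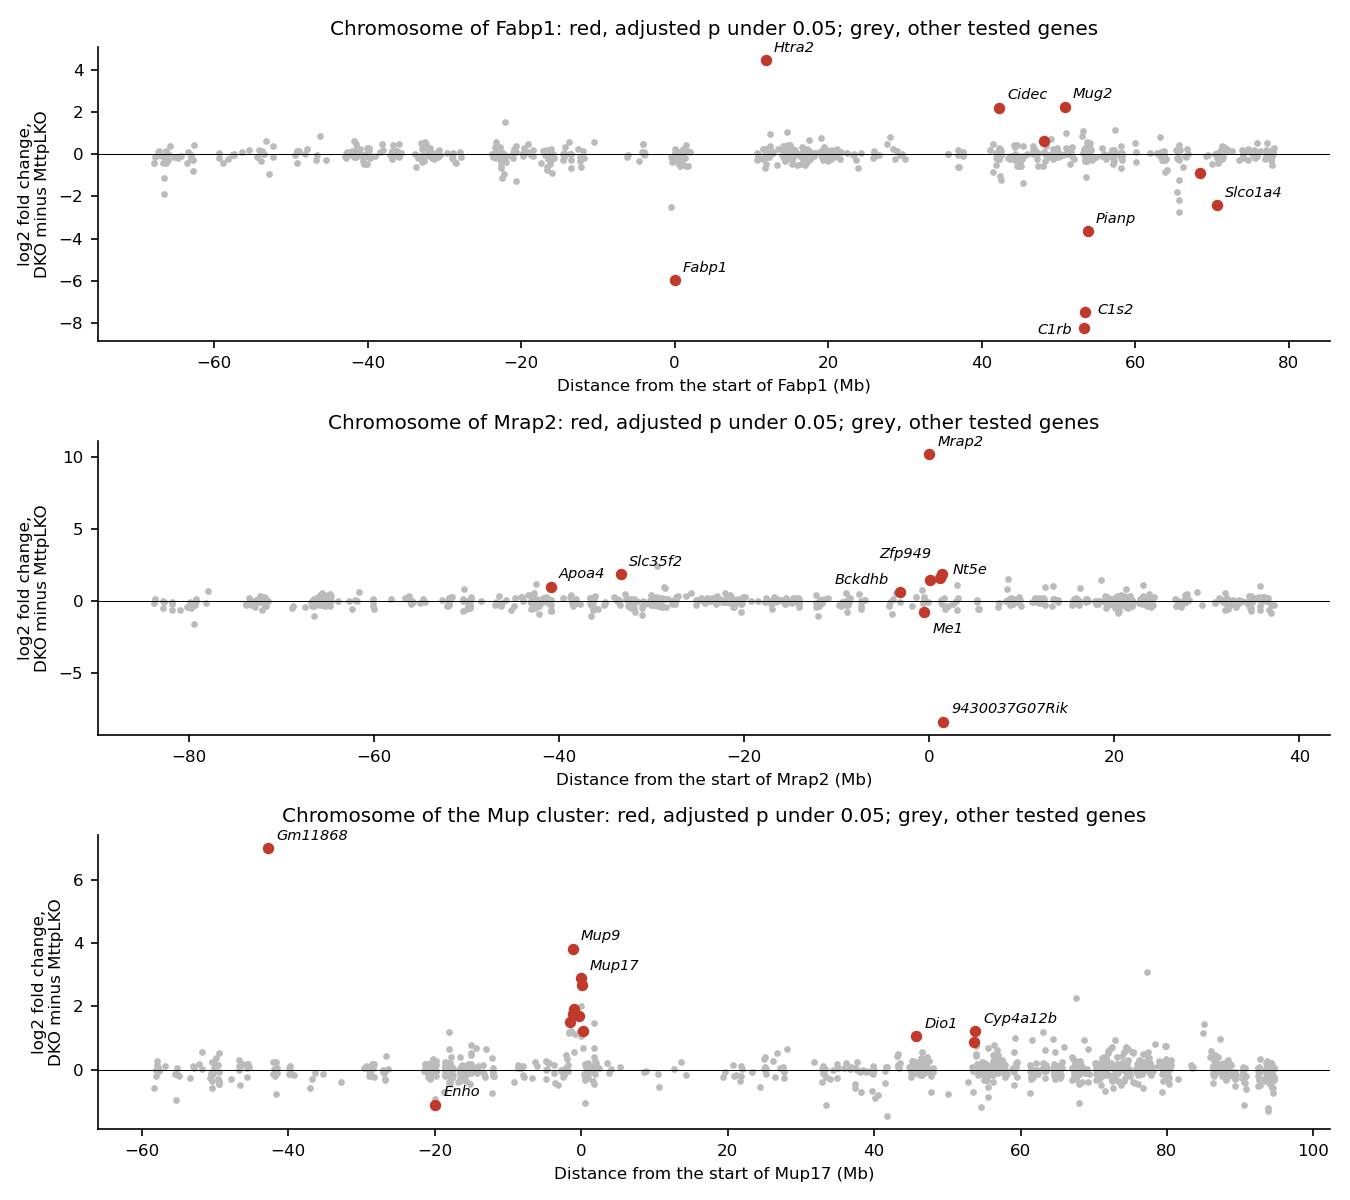
Log2 fold change, DKO minus MttpLKO, of tested genes along chromosomes 6, 9 and 4 by distance in Mb from the start of Fabp1, Mrap2 and Mup17, with called genes in red. Calls on chromosome 6 include Htra2 at 11.9 Mb and a group from 42.2 to 70.6 Mb, and those on chromosomes 9 and 4 gather around Mrap2 and the urinary protein genes.

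On chromosome 4, 8 of 15 tested genes in 1.72 Mb from Mup7 to Gm13775 were called (53.3%), the 7 urinary protein genes and Gm13775, a predicted gene of the cluster. The Gm13775 call (edgeR adjusted p = 0.0367) was lost without control replicates 2 or 3, any MttpLKO replicate, or DKO replicates 2 or 3 (0.051 to 0.241). Elsewhere Slc41a2, a magnesium transporter gene, rose from 4.62, 5.69 and 6.30 CPM to 26.3, 17.5 and 48.3 CPM (log2 fold change 2.47 ± 0.31 SE, edgeR adjusted p = 0.00636). Among the remaining falls, Enho, which encodes the peptide adropin, went from 42.6, 32.5 and 31.7 CPM to 14.3, 19.9 and 15.7 CPM (log2 fold change -1.10 ± 0.18 SE, edgeR adjusted p = 0.0237), with 12.1 to 16.9 CPM in the controls, and it overlaps Dnaic1 on the opposite strand (log2 fold change -0.94). Etnppl, a phosphoethanolamine lyase gene 7.47 Mb from Mttp, averaged 159 ± 12.3 and 78.7 ± 18.2 CPM (edgeR adjusted p = 0.0279), and Dsg1c, a desmoglein gene, 10.8 ± 2.58 and 3.57 ± 0.78 CPM (edgeR adjusted p = 0.0204). The Enho call was lost without MttpLKO replicates 1 or 2 or DKO replicates 1 or 3 (0.0601 to 0.106), that of Etnppl without control replicate 2, any MttpLKO replicate or DKO replicate 2 (0.0528 to 0.0902), and that of Dsg1c without MttpLKO replicates 1 or 2 or DKO replicates 1 or 3 (0.0556 to 0.0929).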

How the data were processed

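Liver RNA of 3 DKO and 3 MttpLKO pools was compared, and 3 control pools entered the fit to share the estimate of spread. Counts per gene were deposited as whole numbers beside CPM and RPKM computed by the authors, per the file headers. The submitters' processing notes list STAR 2.0.4b, Subread and featureCounts 1.4.5, with no roles. The build, annotation and strand setting, and how multi-mapped reads were treated, is information not given in the sources used here. Coordinates are those of the deposited tables. Of their gene identifiers 97.3% were found in GENCODE M21 (GRCm38), and 82.0% of these had the same start. Gene symbols were attached by identifier.

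Genes with at least 0.5 CPM in 3 of the 6 libraries were tested with edgeR 4.0.16 (R 4.3.3): TMM scaling, a quasi-likelihood fit of 3 genotype means over 9 libraries, Benjamini-Hochberg adjustment and a threshold of 0.05. Printed CPM are on TMM-scaled totals. RPKM were used only to compare levels between genes. SEs were derived from each log2 fold change and its F value. The common dispersion was 0.0326 (biological coefficient of variation 18.1%). The fit was tested on simulated data, where edgeR made 183 calls, 13 of them false. It recovered 73% of 2-fold and 97% of 4-fold changes. The simulated counts used the fit's own dispersions, and changes were placed only in genes above a minimum abundance. No simulated library stood apart as MttpLKO replicate 3 did, so recovery in the real data may be lower. On the same simulated data DESeq2 made 207 calls, 29 of them false. Alternatives were RLE scaling, TMM without the 20 most abundant genes, filterByExpr, no filter, DESeq2 1.42.0, the 6 libraries alone, a replicate block and leaving out each library.

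The members and gene lists were chosen with earlier results of these data known. Named were Mttp and Fabp1, the 12 largest rises and 12 largest falls with adjusted p under 0.05, a mean of at least 5 CPM in 1 genotype and no overlap, called list members, called genes within 20 Mb of Fabp1, and the 2 members (up to 4 in lipid lists) with the smallest p in lists without a call. Any other gene was chosen after its values were seen. A few genes that the rule or the lists cover are not reported here. Replicates of a genotype differed beyond counting noise (chi-square per degree of freedom 35.4 to 71.7). Intervals cover counting error only.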

Additional observations from a re-analysis of the deposited data

How the results depend on the processing

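Of the 58 called genes 20 were called under each of the 16 alternatives, 38 lost the call in at least 1, and none changed sign. The counts of called, higher and lower genes were 180, 107 and 73 without the low-count filter (25483 genes tested), 217, 137 and 80 with DESeq2, and 33, 22 and 11 with the 6 compared libraries alone, which leaves fewer residual degrees of freedom. Without single libraries they ranged from 22 to 75 called, 12 to 46 higher and 10 to 29 lower. The lowest counts came without MttpLKO replicate 2 (22, 12 and 10), and there were 38, 24 and 14 without DKO replicate 2, 10 lower without DKO replicate 1, and 75, 46 and 29 without MttpLKO replicate 3. The cause was not tested.

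Replicate numbers are shared by the genotypes, but same-numbered libraries did not deviate together (correlations of -0.1, -0.0846 and -0.246), and no library correlated best with its own number. With the replicate block 43 genes were called, 30 higher and 13 lower, and 40 of these were among the 58.

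Directions that turned were those of genes not called, and their log2 fold changes when single libraries were left out ran from -0.436 to 0.083 for Cyp51 (above 0 without MttpLKO replicate 1), from -0.061 to 0.615 for Gh (below 0 without MttpLKO replicate 1), from -0.082 to 0.352 for Hba-a2 (below 0 without DKO replicate 2 and, at -0.079, without MttpLKO replicate 1), from -3.765 to 0.107 for Ighm and from -1.431 to 0.032 for Lck (both above 0 without MttpLKO replicate 3), and from -0.368 to 0.047 for Vil1 (above 0 without MttpLKO replicates 2 or 3 or DKO replicate 2). Of 576 list medians recomputed under the alternatives 560 moved by less than the spread (SD) of the list score between replicates. That count does not measure stability, because the spread can exceed the median itself. For cholesterol synthesis it was 0.479 against a median of -0.158, so the move to 0.272 without MttpLKO replicate 1 was counted. Depth limits the precision of genes near 0.5 CPM, and every DKO library was shallower than every MttpLKO library.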

Other observations

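Genes of glucose metabolism had lower values in DKO for 22 of 24 tested members, with a median log2 fold change of -0.224 that ran from -0.306 to -0.178 when compared libraries were left out. None was called by edgeR, while 1 was called lower by DESeq2 and 4 were lower at an unadjusted p under 0.05. Slc37a4, which carries glucose 6-phosphate to glucose-6-phosphatase, was at 269, 290 and 233 CPM in MttpLKO and 164, 186 and 216 CPM in DKO, and Pgk1, phosphoglycerate kinase, at 12.4, 13.7 and 11.5 CPM against 9.59, 10.3 and 9.04 CPM. Neither pair of groups overlaps (edgeR adjusted p = 0.199 and 0.319). Immediate early genes were lower for 13 of 17 (median -0.302, -0.105 without MttpLKO replicate 2 and -0.509 without MttpLKO replicate 3), with none called by edgeR, 5 lower at an unadjusted p under 0.05 and 2 called lower by DESeq2. Jun, an AP-1 subunit, was at 120, 143 and 86.6 CPM against 44.0, 46.7 and 71.5 CPM, and Ier2 at 83.4, 82.3 and 84.8 CPM against 36.2, 62.9 and 49.2 CPM (edgeR adjusted p = 0.0974 and 0.186). Jun was called lower without MttpLKO replicate 3 or DKO replicate 3 (edgeR adjusted p = 0.0306 and 0.0394). Circadian clock genes were higher for 7 of 19 (median -0.197; 1 higher and 2 lower at an unadjusted p under 0.05), among them Clock at a log2 fold change of 0.77 and Ciart at -0.59, and interferon response genes for 25 of 38 (median 0.047, below 0 without MttpLKO replicate 2 or DKO replicate 1; 1 lower at an unadjusted p under 0.05), among them Cxcl9 at -1.45 and Tap1 at 0.29. Neither list had a call by edgeR or DESeq2. Of 3 tested pancreas, gut and pituitary markers, Vil1 was at -0.10, and 7 listed markers had no count in the 6 libraries.

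Other called genes were chosen after their values were seen. Tmem98, a membrane protein gene, was at 10.0, 9.63 and 10.2 CPM in MttpLKO and 20.9, 21.5 and 21.5 CPM in DKO (log2 fold change 1.10 ± 0.10 SE, edgeR adjusted p = 0.00066). Dio1, the deiodinase that activates thyroid hormone in liver, was at 86.5, 97.6 and 90.2 CPM against 166, 197 and 211 CPM (log2 fold change 1.07 ± 0.12 SE, edgeR adjusted p = 0.00319). Rarres1, a retinoid-responsive gene, averaged 51.0 ± 5.10 and 93.8 ± 5.59 CPM (edgeR adjusted p = 0.00611). All 3 calls held without any single library. Gm13394, listed as a pseudogene, had the smallest p of all genes, at 92.3, 69.1 and 80.0 CPM in MttpLKO and at most 0.36 CPM in the other 6 libraries (edgeR adjusted p = 3.68e-09), and it overlaps Cfap77 on the same strand. Gadd45gip1 and Wdr83os, 0.249 Mb apart on chromosome 8, rose from 17.9 ± 0.85 to 35.8 ± 7.81 CPM and from 11.5 ± 0.39 to 19.8 ± 2.43 CPM (edgeR adjusted p = 0.0176 and 0.0204; both lost without MttpLKO replicates 1 or 2 or DKO replicates 1 or 2, and Wdr83os without MttpLKO replicate 3, at 0.0511 to 0.123).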
